A study of Mus musculus with 6 samples.

Results

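The endothelial cells described here were picked from brain microvessel libraries by a gate on 6 genes reported in tip cells of growing vessels, namely Apln, Adm, Kit, Angpt2, Fscn1 and Kcne3. A barcode was kept with at least 1000 UMIs (unique molecular identifiers, each standing for 1 captured RNA molecule) and at most 15% mitochondrial UMIs. It counted as endothelial with at least 3 of Pecam1, Cdh5, Flt1, Ly6c1 and Esam detected and at most 2 UMIs summed over Vtn, Rgs5, Acta2, Tagln, C1qa and Ctss, genes of mural cells and microglia. Inside the gate fell the endothelial cells with a UMI of at least 3 of the 6 markers and with 0 UMIs of Plvap and Ackr1, genes of fenestrated and of venular endothelium. There were 730 such cells among 22474 endothelial cells and 27852 barcodes kept. They are called gated cells below, and the endothelial cells of the same library outside the gate are called other cells.

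The study compared 3 Cldn5 iECKO libraries with 3 control libraries, made from brain microvessels of adult C57Bl6 mice with the 10x Genomics v3.1 chemistry. iECKO mice were Cldn5 fl/fl, carried the reporter R26 YFP/YFP and were Cdh5-creERT2+, so that a tamoxifen-dependent Cre recombinase was made under the promoter of the endothelial cadherin gene Cdh5. Control mice had the same floxed Cldn5 and reporter alleles without the Cre, and both groups got tamoxifen by gavage on 3 days at an age of about 3 months. Vessel fragments were captured on beads with an antibody to PECAM1, which selects for endothelium. Whether a library came from 1 animal, and which part of Cldn5 is floxed, is not stated, so that a p-value speaks only of the spread among these libraries.

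Cldn5 encodes claudin-5, the most abundant tight junction protein of the blood-brain barrier. Tip cells lead a vessel sprout: under vascular endothelial growth factor they extend filopodia, secrete proteases and basement membrane, and make the peptide apelin (Apln), whose receptor Aplnr sits on neighbouring endothelial cells. Adult brain capillaries are normally quiescent, and the same genes are also known to be raised by low oxygen, so the markers do not show by themselves that a vessel was sprouting.

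The gate rests on few molecules per cell, and depth therefore bears on it. Gated cells had median UMI counts of 6554, 8969 and 10303 in iECKO 1, 2 and 3, against 4057, 4870 and 5808 in other cells, and their medians in control 1, 2 and 3 were 7170, 9179 and 11640, against 3759, 3874 and 4937 in other cells. iECKO 1 stood apart, since it held 68.9% of all gated cells, and values without it are given beside the lists and named genes whose calls it changed most. Of the barcode sequences, 96 occurred in more than 1 library, and 7 gated cells carried one. The YFP transgene had 0 UMIs in every library, so recombined cells could not be marked by it. Among the highest doublet scores fell 3.58% and 7.06% of the gated cells of iECKO 1 and 3 and 0 of the 105 of iECKO 2, which allows up to 2.86%, against 3.86%, 1.29% and 2.13% of other cells. Sums of pericyte and microglia markers were not higher in gated cells of iECKO libraries: the pericyte and smooth muscle list gave 6.72, 6.64 and 1.72 CPM (a share of all UMIs in the sum, put on 1 common scale), against 11.7, 9.39 and 5.51 CPM in other cells, and the microglia list 41.2, 29.4 and 41.3 CPM, against 57.2, 32.8 and 46.1 CPM. The endothelial rule allowed at most 2 UMIs summed over 6 genes of these cell types, whatever the depth of a cell. Gated cells had more UMIs, so lower sums there cannot show that they held less RNA of these cell types. The astrocyte and oligodendrocyte list gave 307, 145 and 128 CPM, against 207, 124 and 127 CPM, and 2 of its 8 members tested were called higher, Gja1 (0.48) and Aldoc (1.81). Without iECKO 1 neither passed (edgeR adjusted p = 0.111 and 0.87), and 0 of 7 were called higher and 1, Mbp, lower (-2.85). The part of this in the results was not tested.

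The cells were common in iECKO libraries and rare in control libraries. In iECKO 1 they made up 10.5% of endothelial cells (503 of 4773, exact Clopper-Pearson 95% interval 9.68% to 11.4%), in iECKO 2 5.81% (105 of 1808, 4.77% to 6.99%) and in iECKO 3 2.75% (85 of 3091, 2.20% to 3.39%). In control 1 they made up 0.193% (9 of 4653, 0.0885% to 0.367%), in control 2 0.345% (17 of 4925, 0.201% to 0.552%) and in control 3 0.341% (11 of 3224, 0.170% to 0.610%). All 3 iECKO libraries lay above all controls, and the iECKO libraries also differed among themselves beyond counting error. The mean difference was 6.07 percentage points, with p = 0.1 in a two-sided exact permutation test over libraries, the smallest that 3 against 3 can give. Since the markers were chosen with results of these libraries known, this share describes them and is no independent test. With every cell thinned to 2000 UMIs the difference was 2.40 points, and with 4 markers required it was 3.14 points. Leaving out iECKO 1 gave 3.99 points. After thinning to 2000 UMIs iECKO 1, 2 and 3 had shares of 4.43%, 2.58% and 0.637%. Control 1, 2 and 3 had 0.121%, 0.236% and 0.0991%. The interval of iECKO 3 (0.384% to 0.992%) then overlapped that of control 2 (0.113% to 0.434%). At equal depth iECKO 3 thus stood less clearly apart from controls.

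**Figure D1:**
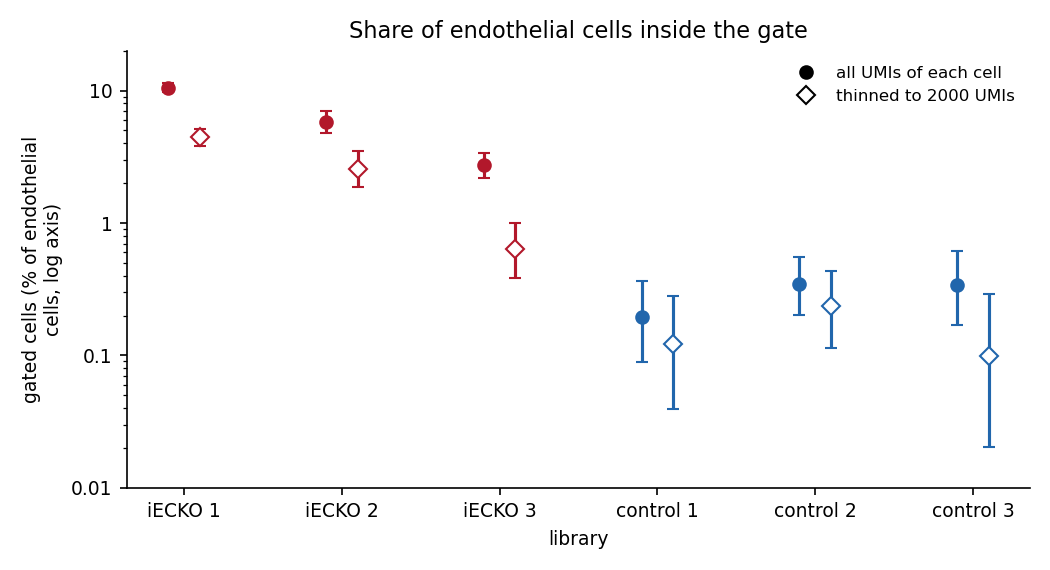
Gated cells as a percentage of the endothelial cells of each library (log axis), for all UMIs of a cell (filled circles) and after thinning each cell to 2000 UMIs (open diamonds), with exact 95% intervals that cover counting error only. With all UMIs the iECKO libraries lie between 2.75% and 10.5% and the control libraries between 0.193% and 0.345%. After thinning the iECKO libraries lie between 0.637% and 4.43% and the control libraries between 0.0991% and 0.236%.

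Barcodes of the microglia type, where free RNA of endothelial cells would also be counted, were read for comparison. They were picked by microglial genes and by few endothelial genes of the gate detected, so barcodes rich in free endothelial RNA were left out. Their count therefore cannot bound the free RNA among gated cells. Of 642 such barcodes, 0 met the marker condition, which allows a share of up to 0.467%. Their median UMI counts ran between 2614 and 5482.

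The largest group of gated cells met the rule at its threshold. Of the 730, 353 had 3 of the markers, 211 had 4, 117 had 5 and 49 had all 6, while 962 endothelial cells had 2. In iECKO libraries the commonest combination was Adm with Angpt2 and Fscn1 (48 of 693 cells, 6.93%), followed by all 6 markers (45 cells, 6.49%). In controls it was Apln, Adm, Kit, Angpt2 and Fscn1 together (11 of 37 cells, 29.7%). The condition on Plvap and Ackr1 removed 16, 2 and 7 cells with 3 or more markers in iECKO 1, 2 and 3 and 8, 6 and 3 in control 1, 2 and 3.

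The 6 markers chose the cells, so their values are given as a description. Of the ligands, Apln (chrX:48025146-48034853 on GRCm38, minus strand) had a UMI in 47.7%, 72.4% and 62.4% of gated cells of iECKO 1, 2 and 3, and in 100%, 82.4% and 72.7% of those of control 1, 2 and 3. In other cells it had one in 2.13%, 2.58% and 2.06% (iECKO) and 0.754%, 0.713% and 1.37% (control). Its level was 269, 556 and 315 CPM in gated iECKO cells and 1167, 791 and 747 CPM in gated control cells, so that every gated control sum was above every gated iECKO sum. The name Apln-positive therefore holds for fewer than 3 in 4 of the gated iECKO cells. Adm (chr7:110627661-110629820), which encodes the vasodilator peptide adrenomedullin, was the marker found most often, in 88.3%, 82.9% and 88.2% of gated iECKO cells. It was also the commonest outside the gate in iECKO 1, where 27.1% of other cells had it, against 7.60% to 8.84% of other cells in controls. Angpt2 (chr8:18690263-18741562, minus strand), a ligand of the receptor Tie2 that destabilises vessels, was found in 65.0%, 78.1% and 69.4% of gated iECKO cells.

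Kit (chr5:75574916-75656722), the receptor of stem cell factor, was found in 57.3%, 60.0% and 55.3% of gated iECKO cells and in 6.32%, 3.29% and 3.33% of other iECKO cells. Fscn1 (chr5:142960343-142973185), which encodes the actin-bundling protein fascin of filopodia, was found in 70.4%, 70.5% and 83.5% of gated iECKO cells. Microglia also express Fscn1, while Apln, Kit and Kcne3 had 0 UMIs in the thinned microglia-type barcodes. Kcne3 (chr7:100176502-100184869), a subunit of voltage-gated potassium channels, was the least common marker in iECKO libraries. It was found in 47.1%, 34.3% and 18.8% of gated cells of iECKO 1, 2 and 3 and in 33.3% and 11.8% of those of control 1 and 2. Control 3 had it in 0 of 11 gated cells, which allows a share of up to 27.3%.

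Endothelial genes were part of the gate, so their detection does not check it. The names tip-like and capillary were checked against genes outside the rule. Esm1, a secreted proteoglycan that marks tip cells in the retina of newborn mice, had 0 UMIs in the gated cells of the 3 iECKO libraries, against 1181 UMIs (19.1 CPM) in other cells, at least 42.6-fold lower with a floor of 3 counts over the group. Other cells with a UMI of Plvap or Ackr1 carried this Esm1: without them it was between 0 and 2.4 CPM at 0 or 1 markers in every library, so the condition on these 2 genes had taken most Esm1 out of reach of the gate. Arterial cells, with a UMI of at least 2 of Bmx, Gkn3, Sema3g and Fbln5 after thinning to 2000 UMIs, made up 0.412% and 1.18% of gated cells of iECKO 1 and 3, against 4.85% and 4.24% of other cells. In iECKO 2 they were 0 of 104 gated cells, which allows up to 2.88%, against 5.91% of other cells. Cells with at least 2 of 5 venous genes made up 14.4%, 11.5% and 22.4% of gated cells of iECKO 1, 2 and 3, against 21.4%, 25.2% and 17.4% of other cells. Cells with at least 2 of 5 capillary genes made up 52.9%, 67.3% and 76.5% of gated cells, against 70.8%, 68.6% and 83.2%, so that capillary genes were frequent in both classes and somewhat less so in gated cells. Esm1 cannot check the name tip-like, since the condition on Plvap and Ackr1 bears on it, and capillary genes were not more frequent, so the cells are called by their gate here.

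Expression was then compared within the iECKO libraries, by sums of UMIs over gated and over other cells of each library, as CPM scaled with TMM factors. Values below run in the order iECKO 1, iECKO 2 and iECKO 3, and a lone value after a gene name in parentheses is its log2 difference, gated over other cells. Where sums of the 2 classes are said not to overlap, the share of all genes tested with this trait is not given. Such a statement describes the values of that gene and does not set it apart from other genes called. Of 11642 genes tested, 1446 were called higher in gated cells (12.4% of genes tested) and 1117 lower (9.59%), at an adjusted p under 0.05 in edgeR's quasi-likelihood test with the library as a term. The same cells chose the gate and entered this contrast, so the calls state what recurred over the 3 libraries and do not show that such a cell class exists. Without iECKO 1, 55.4% of the higher and 54.9% of the lower calls were made again, and none changed sign. With both classes limited to cells within the quartiles of the gated cells' UMI counts, 71.0% and 66.3% were made again, and 1 and 3 had the opposite sign. With each cell thinned to 1000 UMIs, 34.2% and 33.3% were made again, and 39 and 13 had the opposite sign. Against other cells without markers of arteries or veins it was 64% and 52.1%, with 19 and 70 of opposite sign. Without the library term, 166 genes were called higher and 115 lower.

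Apart from the markers, the genes that set the gated cells off most were an enzyme of polyamine synthesis, a homeobox factor, adhesion molecules and tubulins. Odc1 (chr12:17544794-17551505), the rate-limiting enzyme of polyamine synthesis, had 1311, 991.5 and 390.1 CPM in gated cells, against 300.2, 134.5 and 70.5 CPM in other cells (log2 difference 2.48 ± 0.13 SE, edgeR adjusted p = 1.88e-08). Meox1, a homeobox transcription factor, had 229, 293 and 228 CPM in gated cells, against 60.3, 48.0 and 40.4 CPM in other cells (log2 difference 2.32 ± 0.13 SE, edgeR adjusted p = 2.23e-08). For both genes every gated sum was above every sum of other cells. Trp53i11, a p53-inducible gene, had 137, 247 and 104 CPM in gated cells, against 27.4, 19.5 and 19.3 CPM in other cells (log2 difference 2.75 ± 0.35 SE, edgeR adjusted p = 0.0223). Itga4, the integrin subunit that binds VCAM1 and fibronectin, had 119.8, 371 and 141 CPM in gated cells, against 25.1, 37.2 and 28.2 CPM in other cells (log2 difference 2.63 ± 0.25 SE, edgeR adjusted p = 0.00244). Mcam (CD146), an endothelial adhesion molecule, had 258, 227 and 94.4 CPM in gated cells, against 64.5, 23.6 and 15.8 CPM in other cells (log2 difference 2.53 ± 0.29 SE, edgeR adjusted p = 0.00883). In these genes too the groups did not overlap, and Itga4 was highest in iECKO 2. The beta-tubulin gene Tubb6 (log2 difference 2.56), the tetraspanin gene Cd82 (2.27), the vascular protocadherin gene Pcdh12 (2.00), the cyclic AMP phosphodiesterase gene Pde4b (1.98), the potassium channel gene Kcnj2 (1.86), the alpha-tubulin gene Tuba1c (1.85) and the phosphatase gene Ptpre (1.84) completed the 12 largest increases. Tubb6 no longer passed at 4 or more markers (edgeR adjusted p = 0.0531), with other cells also limited to 0 UMIs of Plvap and Ackr1 (0.0709), against other cells without markers of arteries or veins (0.188) and without the library term (0.266). Mcam was also not called against other cells without markers of arteries or veins. Without the library term Mcam, Odc1, Kcnj2 and Tuba1c were not called either.

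**Figure D2:**
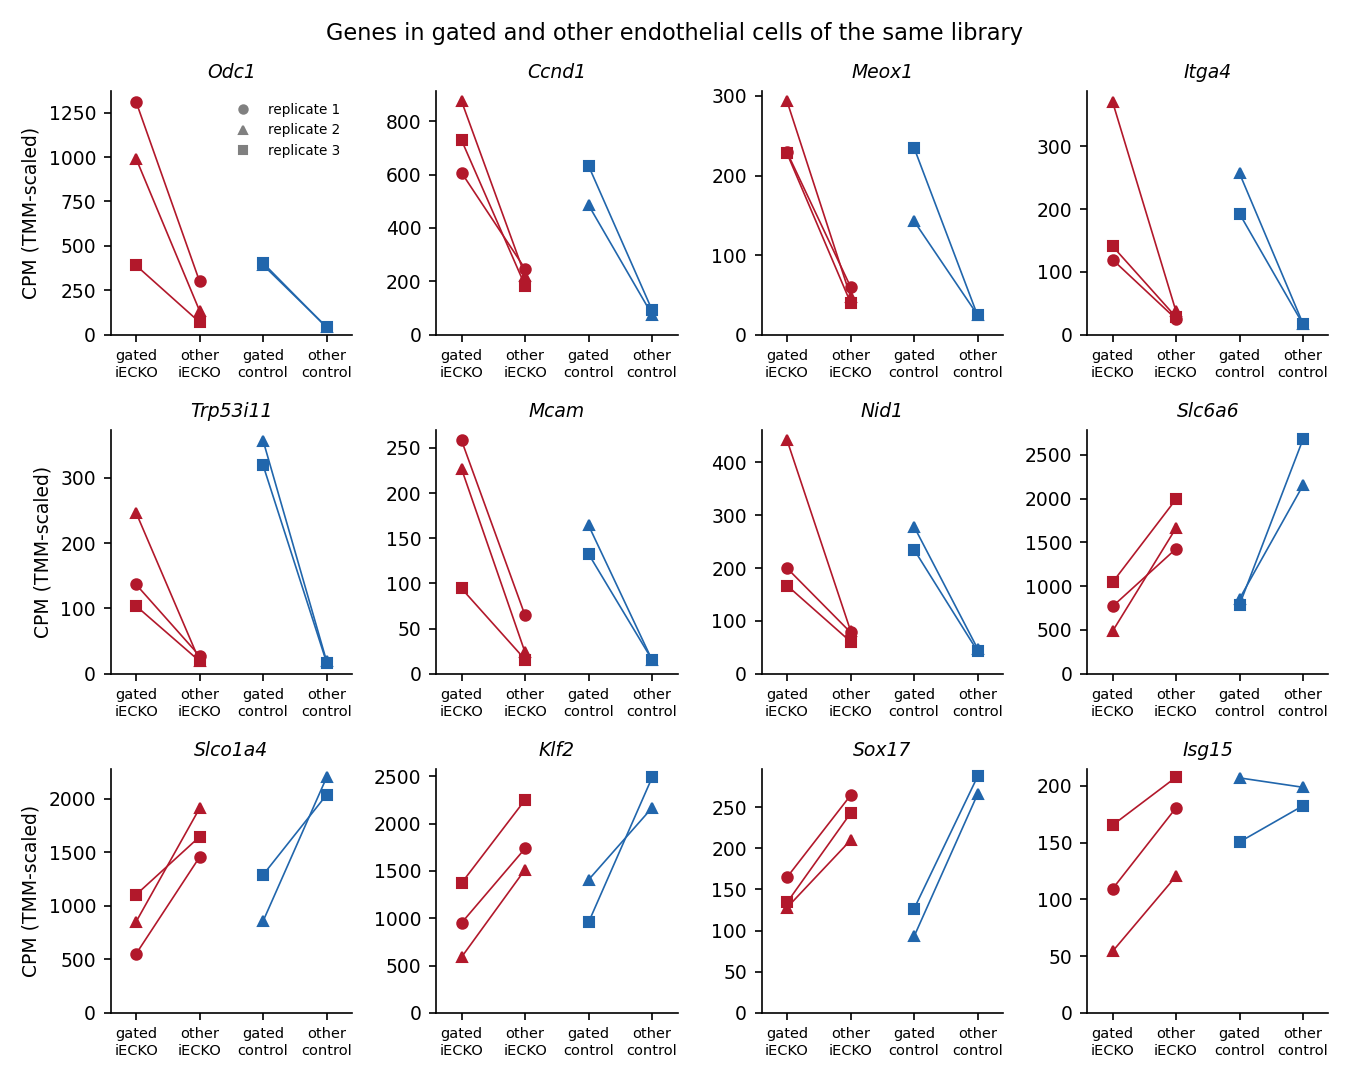
CPM (scaled with TMM factors) of 12 genes in the gated and other cells of each iECKO library (red) and of control 2 and 3 (blue), with a line joining the sums of 1 library. Odc1, Meox1, Itga4, Trp53i11 and Mcam are higher in gated cells of every library, while Slco1a4, Klf2 and Sox17 are lower; Slc6a6 was chosen for the plot after its values were seen.

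The largest decreases were mostly in genes at low levels, and part of them followed from the condition on Plvap and Ackr1. Lrg1, a secreted glycoprotein of venules, had 10.8, 20.8 and 0 CPM in gated cells, against 220.1, 125.5 and 38.1 CPM in other cells (log2 difference -3.95 ± 0.44 SE, edgeR adjusted p = 0.00685). With other cells also limited to 0 UMIs of Plvap and Ackr1 the log2 difference of Lrg1 was -1.71. Against other cells without markers of arteries or veins, a limit set on the other cells alone, it was 1.60. The same applied in part to Cd24a (-3.65, and -1.61 with the matched condition) and the adhesion receptor gene Adgrg6 (-2.39, and -1.30 with edgeR adjusted p = 0.101). Eps8l2 had 9.33, 4.16 and 12.5 CPM in gated cells, against 40.2, 46.4 and 38.0 CPM in other cells (log2 difference -2.16 ± 0.20 SE, edgeR adjusted p = 5.83e-07), and its log2 difference was -2.24 with the matched condition. Mgll (monoacylglycerol lipase, -1.96), Xdh (xanthine dehydrogenase, -1.76), Eln (elastin, -1.64), Prss23 (a serine protease, -1.61), Ephx1 (epoxide hydrolase, -1.61), Edn3 (endothelin-3, -1.61) and Egfl8 (-1.61) were also lower. Without the library term Lrg1, Cd24a, Eln and Edn3 were no longer called. Edn3 was also not called against other cells without markers of arteries or veins. With each cell thinned to 1000 UMIs Adgrg6 and Egfl8 were not called. Xdh and Eln no longer passed without iECKO 1, with edgeR adjusted p = 0.0792 and 0.368. Eln also missed the threshold with DESeq2 (adjusted p = 0.104), at 4 or more markers (edgeR adjusted p = 0.293) and with the matched condition (0.0691), and it turned to 1.06 against other cells without markers of arteries or veins.

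Receptor genes for apelin and adrenomedullin moved unevenly. Of 5 genes listed, 2 were called higher and 1 lower (median log2 difference 0.12, against -0.02 over all genes tested). Aplnr, the apelin receptor, had 15.2, 65.5 and 41.4 CPM in gated cells, against 7.38, 15.3 and 16.3 CPM in other cells (log2 difference 1.48 ± 0.19 SE, edgeR adjusted p = 2.2e-05). Its gated sum in iECKO 1 lay below the other-cell sums of iECKO 2 and 3, but in each library the gated cells were higher. The adrenomedullin receptor needs the accessory proteins RAMP2 or RAMP3. Ramp3 was higher (0.82, and 0.51 with edgeR adjusted p = 0.0696 without iECKO 1), while Ramp2 was lower (-0.31, and -0.27 with edgeR adjusted p = 0.17 without iECKO 1). Without iECKO 1, Aplnr alone of the 5 was called, and the median was -0.14.

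Genes of sprouting endothelium were mostly higher. Of 28 tested, 19 were called higher and 4 lower, with a median log2 difference of 0.67, which is the same with Esm1 at its bound. With other cells also limited to 0 UMIs of Plvap and Ackr1, 19 of 27 were higher and 2 lower. Like the other lists, this one was chosen with earlier results of these data known, and it holds Trp53i11 and Mcam, named above. Receptors for guidance and growth factors were among them. Nrp1, a coreceptor of vascular endothelial growth factor and semaphorins, had 524, 900 and 530.5 CPM in gated cells, against 274, 356 and 267 CPM in other cells (log2 difference 1.09 ± 0.10 SE, edgeR adjusted p = 2.57e-07). Plxnd1, the plexin receptor of semaphorin 3E, had 328, 425.5 and 242 CPM in gated cells, against 158, 146 and 111 CPM in other cells (log2 difference 1.24 ± 0.10 SE, edgeR adjusted p = 5.56e-08). Neither gene overlapped between classes. Spry4, a feedback inhibitor of growth factor signalling, had 158, 83.2 and 38.2 CPM in gated cells, against 48.2, 22.4 and 12.3 CPM in other cells (log2 difference 1.74 ± 0.12 SE, edgeR adjusted p = 5.95e-09). Spry4 rose in each library, but iECKO 1 was high in both classes, so the classes overlapped. Of 11 Notch pathway genes, 4 were called higher and 3 lower (median -0.02). Nrarp, a Notch target and inhibitor, was higher (1.15), as were Mfng (0.60) and the ligand gene Jag1 (0.46), while the fringe gene Lfng (-1.30) and the target Hey1 (-0.98) were lower.

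Basement membrane genes rose together. In the list of basement membrane, matrix and proteases 20 of 28 were called higher and 3 lower, with a median log2 difference of 0.88, and without iECKO 1 it was 17 higher and 2 lower. Col4a1, a chain of collagen IV, had 1679, 2608 and 1237 CPM in gated cells, against 806, 839.8 and 570.4 CPM in other cells (log2 difference 1.27 ± 0.11 SE, edgeR adjusted p = 2.68e-07). Nid2, a nidogen that links collagen IV and laminin, had 216, 299 and 96.0 CPM in gated cells, against 75.4, 66.7 and 33.5 CPM in other cells (log2 difference 1.73 ± 0.13 SE, edgeR adjusted p = 1.54e-07). Sparc, a collagen-binding matricellular protein, had 3583, 3885 and 3189 CPM in gated cells, against 1858, 1371 and 1740 CPM in other cells (log2 difference 1.11 ± 0.12 SE, edgeR adjusted p = 4.35e-06). The classes did not overlap in any of the 3, and iECKO 2 had the highest gated sum. The proteases Adamts1 (1.22) and Plat, tissue plasminogen activator (0.87), also rose, with levels in iECKO 1 high in both classes.

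Cytoskeleton genes were the list with the largest number of increases. Of 31 tested, 23 were called higher and 3 lower (median 0.57). Rhoc, a small GTPase that acts on the actin cytoskeleton, had 1682, 1102 and 933 CPM in gated cells, against 776, 308 and 318 CPM in other cells (log2 difference 1.50 ± 0.12 SE, edgeR adjusted p = 5.83e-07). Tpm4, a tropomyosin, had 1398, 1372 and 791 CPM in gated cells, against 745, 636 and 418 CPM in other cells (log2 difference 0.98 ± 0.10 SE, edgeR adjusted p = 4.33e-07). Tmsb10, a thymosin that binds actin monomers, had 3329, 2539 and 2359 CPM in gated cells, against 1768, 980.1 and 1305 CPM in other cells (log2 difference 1.04 ± 0.11 SE, edgeR adjusted p = 7.35e-07). None of these overlapped between classes. Tmsb4x (0.89) and Actb (0.92), both among the most abundant RNAs of the cells, rose as well, so this list does not rest on rare transcripts.

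Growth-related genes were higher alongside Odc1. Of 18 genes of polyamine synthesis and cell growth 13 were called higher and 1 lower (median 0.59), and without iECKO 1 it was 10 higher and 1 lower. Srm, spermidine synthase, had 40.7, 36.4 and 33.5 CPM in gated cells, against 17.6, 12.1 and 15.4 CPM in other cells (log2 difference 1.27 ± 0.15 SE, edgeR adjusted p = 5.05e-06). The nucleolar genes Fbl (0.85), Nolc1 (0.74) and Nop58 (0.72) were higher. In the cell cycle list 4 of 15 were called higher and 1 lower (median 0.31). Ccnd1, the G1 cyclin D1, had 607, 875 and 729 CPM in gated cells, against 247, 221 and 184 CPM in other cells (log2 difference 1.75 ± 0.13 SE, edgeR adjusted p = 1.46e-06). Its gated sums all lay above the sums of other cells, and iECKO 1 was the lowest of the gated sums. Cdk1 was higher from a low level (7.85, 12.5 and 4.68 CPM in gated cells, against 2.18, 3.19 and 1.09 CPM in other cells), Cdk4 (0.49) and Tubb5 (0.61) were higher, and Stmn1 was lower (-0.91). Cells with a UMI of at least 2 of Mki67, Top2a, Cdk1, Birc5, Ccna2 and Ccnb1 after thinning numbered 0 of 486, 0 of 104 and 0 of 85 gated cells, which allows up to 0.617%, 2.88% and 3.53%. Cycling cells were thus not detectable at this depth in the gated iECKO cells, and in other cells they numbered 0 of 3731, 2 of 1524 and 0 of 2900. In control 1, 2 and 3 they numbered 0 of 9, 0 of 15 and 1 of 11 gated cells, against 1 of 4117, 1 of 4217 and 1 of 3017 other cells.

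Of 20 genes of hypoxia and glycolysis 11 were called higher and 2 lower (median 0.47). Ankrd37, a target of the hypoxia-inducible factors, had 696, 199.8 and 99.9 CPM in gated cells, against 251, 57.0 and 37.0 CPM in other cells (log2 difference 1.56 ± 0.11 SE, edgeR adjusted p = 7.2e-09). It was higher in gated cells of each library, and its level also differed between libraries in both classes, with iECKO 1 highest. The glycolytic enzymes Pkm (0.67), Gapdh (0.62), Pgk1 (0.66) and Pfkp (0.83) were higher. The 2 called lower, named after their values were seen, were the hypoxia-induced genes Ndrg1 and Bnip3. Ndrg1 had 314, 131 and 257 CPM in gated cells, against 578, 432 and 392 CPM in other cells (log2 difference -1.02 ± 0.20 SE, edgeR adjusted p = 0.0161). Every gated sum of Ndrg1 was below every sum of other cells. Bnip3 (-0.50) no longer passed without iECKO 1 (edgeR adjusted p = 0.191).

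The promoters of Apln, Odc1 and Ankrd37 are shown. The first gene names the cells, and the second had the largest difference in detection outside the rule. The third holds ACGTG, a form of the short motif of hypoxia response elements. Each is the 250 bases before the RefSeq start on GRCm38.p6, 5′ to 3′ on the gene's strand, and capitals mark ACGTG or, as its reverse complement, CACGT. The Apln window is chrX:48034854-48035103 (minus strand), the Odc1 window chr12:17544623-17544872 (plus strand) and the Ankrd37 window chr8:45999851-46000100 (minus strand).
Apln: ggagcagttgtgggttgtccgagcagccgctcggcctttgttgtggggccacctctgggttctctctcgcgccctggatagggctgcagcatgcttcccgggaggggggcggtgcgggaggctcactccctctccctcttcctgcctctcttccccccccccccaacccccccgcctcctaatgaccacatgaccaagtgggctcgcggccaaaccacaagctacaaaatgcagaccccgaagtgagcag
Odc1: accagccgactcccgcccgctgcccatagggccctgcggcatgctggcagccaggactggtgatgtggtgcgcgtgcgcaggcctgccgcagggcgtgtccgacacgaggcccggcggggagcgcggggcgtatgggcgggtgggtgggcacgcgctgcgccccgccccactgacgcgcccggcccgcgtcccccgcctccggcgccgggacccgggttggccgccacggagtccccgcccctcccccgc
Ankrd37: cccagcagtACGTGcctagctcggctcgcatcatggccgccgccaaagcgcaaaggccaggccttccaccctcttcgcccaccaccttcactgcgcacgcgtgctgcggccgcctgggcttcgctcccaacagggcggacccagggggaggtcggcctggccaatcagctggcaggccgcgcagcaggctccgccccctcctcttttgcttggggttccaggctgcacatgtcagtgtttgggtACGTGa
The Ankrd37 window had 2 matches and the Apln and Odc1 windows had 0. Over all 32851 promoter windows of this length 16.6% had a match and 6.81% had at least 2. Of the other markers, Adm, Kit and Fscn1 had 0 matches, and Kcne3 had 1 in 1 of its 2 windows. A match says only that these letters stand in the window. Other forms of the motif were not searched, so 0 matches do not show that a window lacks it.

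Barrier transporters called were mostly lower. Of 26 tested, 13 were called lower and 4 higher (median -0.29). Slco1a4, an organic anion transporter of brain capillaries, had 550.1, 850 and 1103 CPM in gated cells, against 1455, 1911 and 1645 CPM in other cells (log2 difference -1.05 ± 0.14 SE, edgeR adjusted p = 0.000354). Abcb1a, the drug efflux pump P-glycoprotein, had 735, 886.5 and 864 CPM in gated cells, against 1153, 1684 and 1248 CPM in other cells (log2 difference -0.70 ± 0.10 SE, edgeR adjusted p = 3.95e-05). In both genes every gated sum was below every sum of other cells. The transferrin receptor gene Tfrc (-0.52) and the efflux pump gene Abcc4 (-0.65) were lower, while the cationic amino acid transporter gene Slc7a3 was higher from a low level (1.52). Of 19 Wnt and beta-catenin genes, a pathway that maintains the barrier, 3 were called lower and 0 higher (median -0.15). Sox17 had 165, 128 and 134 CPM in gated cells, against 264.5, 209.9 and 243 CPM in other cells (log2 difference -0.75 ± 0.10 SE, edgeR adjusted p = 1.38e-05). Notum (-1.07) and Tnfrsf19 (-0.74) were the others. With other cells also limited to 0 UMIs of Plvap and Ackr1, 8 of the 19 were called lower and 0 higher.

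Calls among junction genes depended on iECKO 1. Of 14 tested, 4 were called higher and 1 lower (median 0.18), against 12.4% higher and 9.59% lower over all genes tested. Without iECKO 1 it was 0 higher and 2 lower. Ocln, the tight junction protein occludin, had 135, 118 and 174 CPM in gated cells, against 199, 232 and 219 CPM in other cells (log2 difference -0.60 ± 0.11 SE, edgeR adjusted p = 0.000589). Marveld2 (tricellulin, 0.96) and Ctnna1 (a catenin, 0.33) were higher, and neither passed without iECKO 1. Cldn5 was called higher too and is taken up below. In the list of caveolar and peripheral-type genes 2 of 13 were called higher and 6 lower (median -0.32, the same with Aqp1 at its bound), and without iECKO 1 it was 2 higher and 3 lower of 12. Meox1 and Cavin3 (0.44) were higher and Cavin2 (-1.23), Gpihbp1 (-3.28) and Aqp1 were lower. Aqp1 had 0 UMIs in gated cells, at least 9.01-fold lower, and 2 of 10 were called higher and 2 lower once the other cells met the same condition on Plvap and Ackr1.

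Immediate-early and stress genes, which enzymatic dissociation is known to raise, were lower on balance: 13 of 30 were called lower and 4 higher (median -0.27), and without iECKO 1 it was 14 lower and 1 higher. Klf2, a transcription factor induced by laminar flow, had 951, 589 and 1372 CPM in gated cells, against 1738, 1515 and 2252 CPM in other cells (log2 difference -0.97 ± 0.12 SE, edgeR adjusted p = 9.06e-06). Klf4, its paralog with a like role, had 341, 287 and 422 CPM in gated cells, against 645, 722 and 711 CPM in other cells (log2 difference -0.99 ± 0.11 SE, edgeR adjusted p = 1.93e-06). The gated sums of both lay below all sums of other cells. Fos (-0.75), Hspa1a (-0.86) and Hspa1b (-0.80) were lower too. Of 25 interferon-induced genes 12 were called lower and 0 higher (median -0.53). Isg15 had 109, 54.1 and 165 CPM in gated cells, against 181, 120.4 and 208 CPM in other cells (log2 difference -0.67 ± 0.12 SE, edgeR adjusted p = 0.000868). It was lower in each library, with classes that overlapped, and no longer passed with depth matched (edgeR adjusted p = 0.361). Gbp7 (-0.70), Irf7 (-0.89), Usp18 (-0.75) and Ifitm1 (-2.85, and -0.90 with the matched condition) were lower. Among 21 genes of leukocyte adhesion and NF-kappaB 7 were called higher and 3 lower (median 0.12), led by Tnfaip3 (1.06), Nfkb2 (0.73) and Relb (0.48), and without iECKO 1 it was 2 higher and 1 lower. Tnfaip2 (-2.77) and Cxcl10 (-1.52) were lower from a low level. With the matched condition on Plvap and Ackr1, 8 of 20 were called higher and 0 lower, so these decreases were not called there.

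Marker lists of both ends of the vascular tree had more members lower than higher. Of 15 arterial markers 6 were called lower and 0 higher, among them the ephrin gene Efnb2 (-0.98), Sema3g (-1.55), Fbln5 (-1.83) and the connexin gene Gja4 (-1.70). Of 13 venous markers 8 were called lower and 1, the thymosin gene Tmsb10, higher. With the matched condition on Plvap and Ackr1, 4 of the 13 were lower. Ctsc (-1.02, and -0.76) and the amino acid transporter gene Slc38a5 (-0.75, and -0.52) remained lower, while Ptgs1 (-3.02) was -0.83 with edgeR adjusted p = 0.394. Of 11 mid-capillary markers 2 were called higher and 3 lower. Spock2 was lower (-0.91), and the lipid transporter gene Mfsd2a was slightly higher (0.29, edgeR adjusted p = 0.043). With the matched condition on Plvap and Ackr1, 0 of the 11 were called higher and 4 lower. Mfsd2a was not called there or with depth matched.

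**Figure D3:**
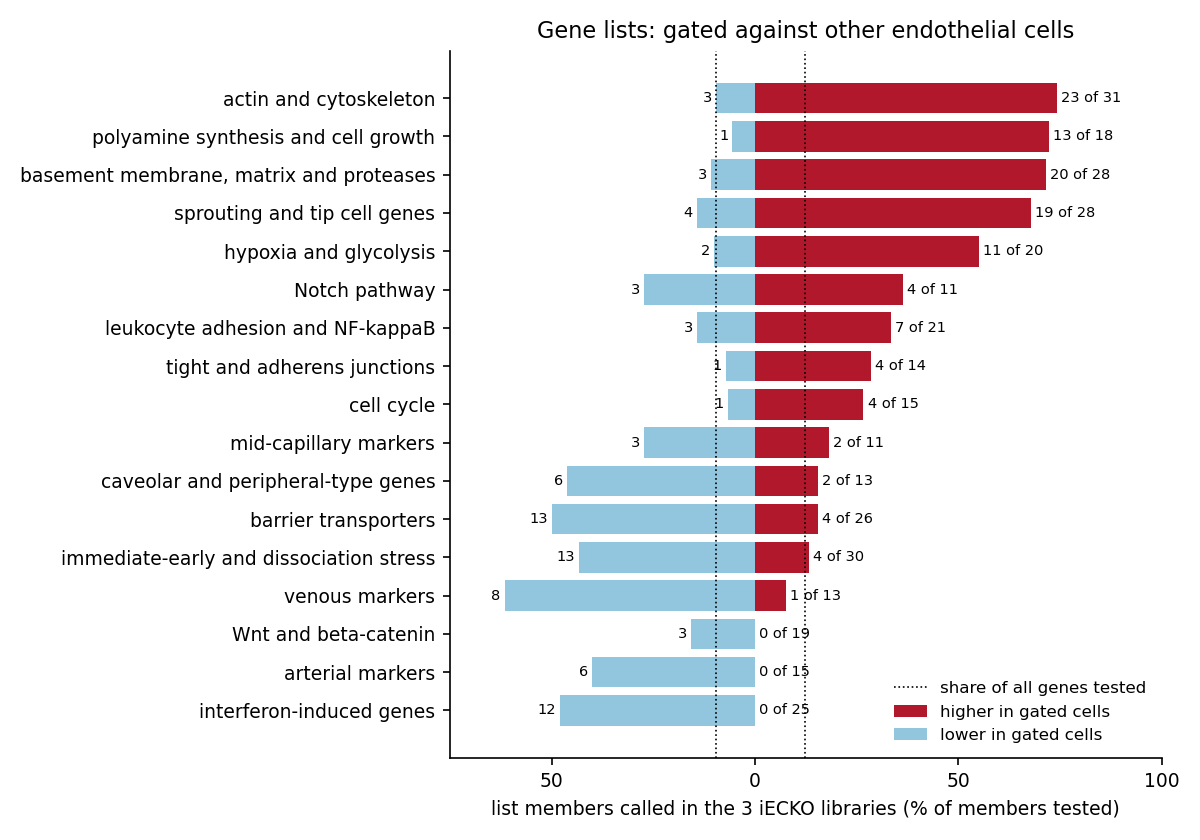
Members of each list called higher (right) and lower (left) in gated cells of the 3 iECKO libraries, as a percentage of the members tested, with the counts; dotted lines give the share of all genes tested, 12.4% higher and 9.59% lower. Cytoskeleton, polyamine and growth, matrix and sprouting lists stand at the top, and arterial, Wnt and interferon lists, with 0 members higher, at the bottom.

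The share of cells with a UMI gave a second view that treats every cell alike. After thinning to 2000 UMIs, Apln had a UMI in 33.5% of gated cells and 0.809% of other cells, as means of 3 iECKO libraries. The 5 genes outside the rule with the largest difference in the share of cells with a UMI were Odc1 (59.3% of gated and 17.8% of other cells), Ccnd1 (66.6% and 27.2%), Fkbp1a (78.0% and 47.4%), Rhoc (80.6% and 50.1%) and Nrp1 (69.0% and 39.9%).

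Levels were also read by the number of markers detected, among iECKO endothelial cells without a UMI of Plvap or Ackr1. In iECKO 1, Odc1 had 128, 395, 670, 947 and 1400 CPM at 0, 1, 2, 3 and 4 to 6 markers. In iECKO 2 it had 90.5, 183, 298, 919 and 893 CPM, and in iECKO 3 it had 56.7, 107, 190.4, 259 and 646 CPM. Odc1 was thus higher at each further step in iECKO 1 and 3, but not at the last step in iECKO 2. Cells just outside the gate, with 2 markers, had 670, 298 and 190.4 CPM of Odc1 in iECKO 1, 2 and 3, and cells just inside it, with 3 markers, had 947, 919 and 259 CPM. Trp53i11 had 43.8, 27.4 and 22.4 CPM at 2 markers, 58.2, 77.4 and 46.2 CPM at 3 markers and 179, 320 and 200.4 CPM at 4 to 6 markers. Col4a1 had 658, 696 and 614 CPM at 0 markers and 1700.3, 2805 and 1819 CPM at 4 to 6 markers. Slco1a4 had 1887, 2074 and 2022 CPM at 0 markers and 383, 507 and 883 CPM at 4 to 6 markers. Mfsd2a had no such order, with 286, 218 and 247 CPM at 0 markers and 225, 260 and 282 CPM at 4 to 6 markers. Median depth was 3426 UMIs at 0 markers and 7137 UMIs at 4 to 6 markers in iECKO 1, and the part of depth in these levels was not tested. These levels are read from the cells that the markers sorted and carry no test.

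**Figure D4:**
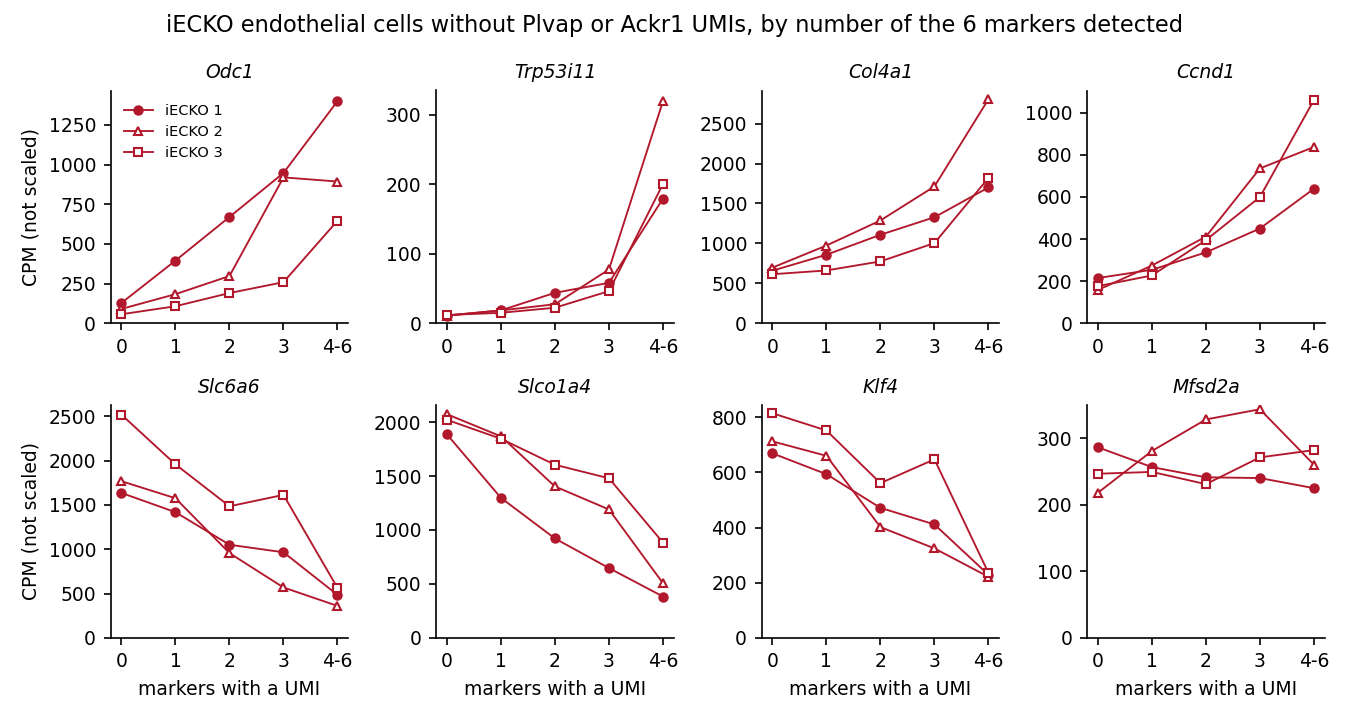
CPM (not scaled) of 8 genes in iECKO endothelial cells without a UMI of Plvap or Ackr1, by the number of the 6 markers detected in the cell, with a line for each library. Odc1, Trp53i11, Col4a1 and Ccnd1 are highest at 4 to 6 markers in iECKO 1 and 3 and, Odc1 apart, in iECKO 2; Slc6a6 (a taurine transporter gene, chosen after its values were seen), Slco1a4 and Klf4 are lowest there, and Mfsd2a has no common order.

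In the few gated cells of controls, Trp53i11, Odc1 and Meox1 stood out as well. Control 1, with 9 gated cells, was left out of tests, and control 2 and 3 held 17 and 11, or 28 together. With the library as a term this fit has 1 residual degree of freedom. Its p-values therefore rest mostly on a spread shared over genes, and hardly on each gene's own spread between these libraries. Of 12206 genes tested, 253 were called higher in their gated cells (2.07%) and 316 lower (2.59%), and with size factors of the RLE type in place of TMM it was 311 higher and 255 lower. The median log2 difference over all genes was -0.20, and -0.125 with RLE factors. Trp53i11 had 357 and 319 CPM in gated cells of control 2 and 3, against 19.0 and 17.1 CPM in other cells (log2 difference 4.22 ± 0.23 SE, edgeR adjusted p = 1.11e-69). Odc1 had 393 and 404 CPM in gated cells of control 2 and 3, against 43.4 and 41.1 CPM in other cells (log2 difference 3.24 ± 0.21 SE, edgeR adjusted p = 8.77e-50). Meox1 had 143 and 235 CPM in gated cells of control 2 and 3, against 24.8 and 24.3 CPM in other cells (log2 difference 2.97 ± 0.28 SE, edgeR adjusted p = 5.75e-24). The remaining largest increases were in Ccnd1 (log2 difference 2.74), Fxyd6 (2.67), the nidogen genes Nid1 (2.51) and Nid2 (2.26), the carboxypeptidase gene Cpe (2.31), Sh3bp5 (2.23), Pde4b (2.13), Ctla2a (2.11) and Bcl6b (2.05). In both control libraries these genes were higher in gated cells.

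The largest decreases in control gated cells were in arterial and low-level genes. Mgp, the arterial matrix Gla protein, had 14.3 and 0 CPM in gated cells of control 2 and 3, against 477 and 218 CPM in other cells (log2 difference -5.69 ± 0.46 SE, edgeR adjusted p = 7.14e-32), Clu (clusterin) had a log2 difference of -4.45 and Igfbp3 one of -4.29. Eps8l2, Fbln5 and Lrg1 had 0 UMIs in these gated cells and were at least 4.85-fold, 4.61-fold and 3.44-fold lower with a floor of 3 counts over the group. Esm1 was lower by a log2 difference of -4.12, which became 1.07 (edgeR adjusted p = 0.93) once the other cells met the condition on Plvap and Ackr1. Hbb-bt (a haemoglobin chain of red cells), Adgrg6, Wnt5a, Arhgef10 and Slc26a10 completed the 12. By list, 15 of 28 matrix genes, 16 of 31 cytoskeleton genes, 14 of 28 sprouting genes and 6 of 16 cell cycle genes were called higher. Called lower were 10 of 26 transporters, 11 of 15 arterial markers and 8 of 29 immediate-early and stress genes. Of the hypoxia and glycolysis list 2 of 19 were called higher, of the polyamine and growth list 2 of 17, and of the interferon list 2 of 25 were called lower; counts in 28 cells cannot be set against those in 693, and the test of each difference follows.

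The contrast between gated and other cells differed between iECKO and control libraries for few genes. An interaction of class and group was called for 7 genes higher in iECKO (0.0607% of 11524) and 14 lower (0.121%). Ccnd1 was raised less in iECKO libraries (log2 difference 1.75 against 2.74 in control 2 and 3, interaction -1.05 ± 0.20 SE, edgeR adjusted p = 0.00151). Its level in gated cells was 618, 892 and 742 CPM in iECKO libraries and 485 and 633 CPM in control 2 and 3, while other cells had 252, 224 and 187 CPM in iECKO libraries and 71.3 and 88.6 CPM in control 2 and 3. Without control 2 the counts were 0 and 2, and without control 3 they were 0 and 0, so that these calls rest on both control libraries with few cells.

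Within gated cells alone, iECKO and control libraries could be compared at low power. Of 8653 genes tested, 0 were called higher (0%) and 0 lower (0%) by edgeR, and 332 and 206 had an unadjusted p under 0.05. DESeq2 called 0 higher and 3 lower. With the replicate number as a block, 8 genes were called higher and 9 lower. iECKO 1 has no control partner in that fit and adds nothing to its differences, which rest on the 2 pairs of iECKO and control 2 and 3 with 1 residual degree of freedom. Cldn5, the targeted gene (chr16:18776847-18778262), had 3337, 3121 and 2950 CPM in gated cells of iECKO 1, 2 and 3, against 5490 and 5832 CPM in those of control 2 and 3 (log2 difference with the block -0.90 ± 0.18 SE, edgeR adjusted p = 0.00498). Every iECKO sum lay below both control sums. Akap12, a scaffold of protein kinase A, had 1569, 1321 and 317 CPM, against 236 and 156 CPM (1.84 ± 0.26 SE, edgeR adjusted p = 1.92e-05). Mgp, Stra6, Kctd12, Sema6d, Plat, Adamts1 and Pglyrp1 were the others called higher, and Trp53i11, Cxcl12, H2-Q7, Tpd52l1, Cdkn1c, Vcam1, Fxyd6 and Pdgfa were called lower.

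Cldn5 in the gated cells bears on whether they were the cells that had lost it. Within iECKO libraries Cldn5 had 3460, 3140 and 2938 CPM in gated cells, against 2677, 2194 and 2698 CPM in other cells (log2 difference 0.34 ± 0.10 SE, edgeR adjusted p = 0.0187). It was higher in gated cells of each library, and the call was lost without iECKO 1 (edgeR adjusted p = 0.0716), with depth matched (0.066) and with the matched condition on Plvap and Ackr1 (0.0515). In control 2 and 3 its log2 difference was 0.21 (edgeR adjusted p = 0.393). After thinning to 2000 UMIs, cells with no Cldn5 UMI made up 17.1% (83 of 486), 14.4% (15 of 104) and 15.3% (13 of 85) of gated cells, against 24.0%, 22.8% and 19.3% of other cells. The gated share was lower in each of the 3 libraries, with a mean difference of -6.45 percentage points (gated minus other; p = 0.25 in a two-sided exact sign-flip permutation test, the smallest that 3 libraries allow). With both classes limited to cells within the quartiles of the gated cells' UMI counts the difference was -1.10 points (exact permutation p = 0.5), and iECKO 3 then had the higher share in gated cells. In control 1, 2 and 3, 0 of 9, 0 of 15 and 0 of 11 gated cells lacked a Cldn5 UMI, which allows up to 33.3%, 20% and 27.3%, against 3.98%, 5.31% and 2.95% of other cells. With other cells also limited to 0 UMIs of Plvap and Ackr1, as the gate requires, it was 0.851%, 1.14% and 0.463% of other control cells, and 22.4%, 21.2% and 17.7% of other iECKO cells.

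**Figure D5:**
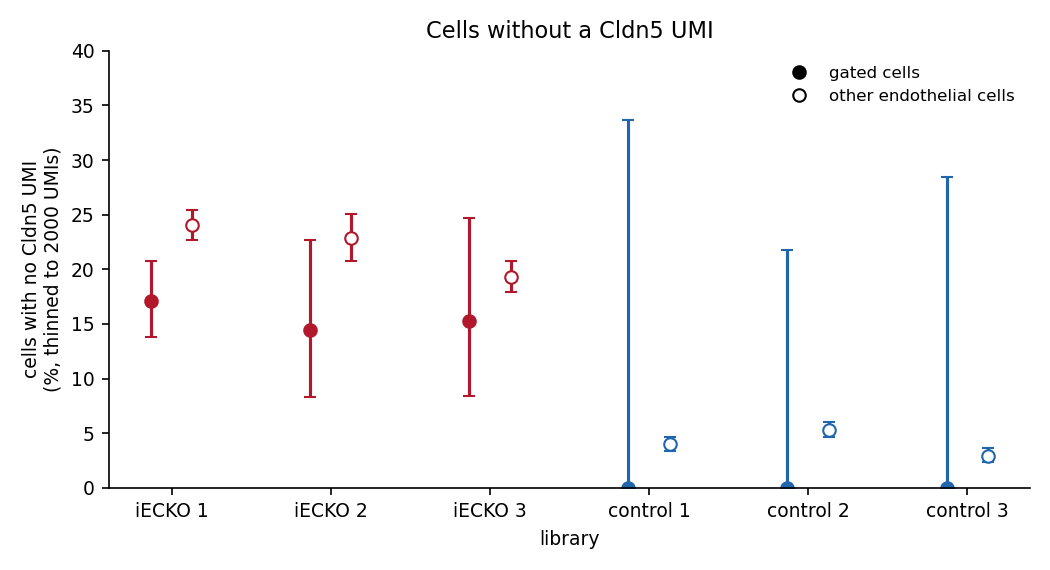
Cells without a Cldn5 UMI after thinning to 2000 UMIs, as a percentage of gated cells (filled) and of other cells (open) of each library, with exact 95% intervals for counting error. In iECKO libraries 14.4% to 17.1% of gated cells and 19.3% to 24.0% of other cells lacked a Cldn5 UMI.

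Read the other way, the gate held 8.48%, 4.13% and 2.27% of iECKO cells with 0 Cldn5 UMIs in iECKO 1, 2 and 3, against 12.96%, 7.66% and 2.88% of those with at least 2. Gated cells thus occurred both among cells without and among cells with Cldn5 UMIs, and a cell with 0 UMIs at this depth need not have lost the gene.

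Differences between iECKO and control libraries were also called outside the gate. Without pairing, 1 of 13445 genes was called higher in iECKO other cells (0.00744%) and 0 lower (0%). It was Prnd, the gene of the prion-like protein doppel, with 8.39, 7.77 and 9.10 CPM in iECKO libraries, against 1.85, 1.57 and 1.52 CPM in controls. With the replicate number as a block 89 were called higher (0.662%) and 42 lower (0.312%). Of the 142 genes called this way over all endothelial cells, 119 were also called with the gated cells left out (119 of 131), and 79 were also called in cells without any of the 6 markers (79 of 143). Leaving out the gated cells lowered some differences: the blocked log2 difference of Meox1 was 1.36 over all endothelial cells, 1.00 outside the gate and 0.87 in cells without markers, and that of Itga4 1.38, 0.93 and 0.51. Both genes were named for being higher in gated cells, which were more frequent in iECKO libraries. Leaving those cells out was thus bound to lower both differences, and the drop is no separate result. Ccnd1 kept most of its difference, with 1.53, 1.32 and 1.31. Odc1 had 2.21, 1.81 and 1.20 and passed in none of the 3 (edgeR adjusted p = 0.294, 0.358 and 0.182). Cldn5 itself was lower in all 3 sets, with -0.81, -0.84 and -0.98.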

How the data were processed

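The deposited files hold raw UMI counts per gene and barcode for each library, made by the authors with Cell Ranger 6.1.1, as the file headers state, on build mm10, which the submitters' processing notes name beside Seurat. No normalization had been applied. Barcodes were filtered and gated as the report gives. The gate, the gene lists and the named genes were chosen with earlier results of these data known.

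The UMI counts of gated and of other cells were added up in each library that had 10 or more gated cells. edgeR 4.0.16 (robust quasi-likelihood test, TMM factors, filterByExpr) gave log2 differences, standard errors (SE) and Benjamini-Hochberg adjusted p, two-sided, over all genes tested except the 19 the rule read; gated and other cells were compared with the library as a term, and iECKO and control libraries without pairing. Named were the 12 largest changes each way that passed, among genes averaging 5 or more in log2 CPM and moving 1 way in every library, at most 5 members a list by adjusted p, Cldn5 and the 6 markers; predicted, mitochondrial, ribosomal protein and sex-linked genes were not named. A few genes that met this rule are not reported here. Replicate numbers were taken to pair libraries, since same-numbered libraries deviated together from their group means (r = 0.371, 0.323 and 0.295 across 13508 genes). All other pairs were negative, which follows in part from taking out the group means. The pairing was read from the same endothelial cells that the block was used on, so it is no independent check of the blocked calls.

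Libraries held between 1808 and 4925 endothelial cells, and intervals and limits cover counting error only. Scrublet's own threshold called 5 barcodes (0.018%), so doublets were left in and the 1046 highest scores were removed as an alternative. On simulated data the gated-cell contrast of iECKO libraries recovered 78.0% of 100 genes changed by 1 on the log2 scale and 98.0% of those changed by 2 (11660 genes), and the comparison of gated cells between groups recovered 7.4% and 60.0% (8665 genes). Alternatives were DESeq2 1.42.0 tests, size factors of the RLE type, all genes unfiltered, each library left out, the replicate block, other marker numbers, thinning, depth matching and other limits on the cells compared. Gene positions are from GENCODE M21 and promoters from RefSeq.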

Additional observations from a re-analysis of the deposited data

Results flagged for a closer look

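For 14 genes that the naming rule picks, the difference between gated and other cells was itself different in iECKO and in control libraries, by the interaction of class and group. A positive interaction means that gated cells stood higher relative to other cells in iECKO libraries. The test rests on 28 gated control cells, and without control 2, or without control 3, 0 genes had a positive interaction called.

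The interaction was positive in 7 genes, and in 5 of them gated cells were lower than other cells in controls and level or higher in iECKO libraries. Lrrn3, a leucine-rich repeat neuronal protein gene, had an interaction of 1.65 ± 0.37 SE (edgeR adjusted p = 0.0115), with log2 differences of -0.03 in iECKO libraries and -1.74 in control 2 and 3. Akap12, a kinase anchoring protein gene, had an interaction of 1.59 ± 0.23 SE (edgeR adjusted p = 2.55e-05), with log2 differences of 0.82 in iECKO libraries and -0.84 in control 2 and 3. Akap12 had 1657, 1354 and 322 CPM in gated and 881, 608 and 251 CPM in other cells of iECKO 1, 2 and 3, and 228 and 151 CPM in gated and 336 and 304 CPM in other cells of control 2 and 3. Kctd12, a potassium channel tetramerisation domain gene, had an interaction of 1.29 ± 0.27 SE (edgeR adjusted p = 0.00351), with log2 differences of 0.40 in iECKO libraries and -0.96 in control 2 and 3. Mt2, a metallothionein gene, had an interaction of 1.19 ± 0.28 SE (edgeR adjusted p = 0.0202), with log2 differences of 0.41 in iECKO libraries and -0.84 in control 2 and 3. Kitl, the gene of the ligand of the marker Kit, had an interaction of 1.10 ± 0.19 SE (edgeR adjusted p = 0.000185), with log2 differences of 0.26 in iECKO libraries and -0.90 in control 2 and 3. Kitl had 1248, 807 and 777 CPM in gated and 837, 753 and 719 CPM in other cells of iECKO 1, 2 and 3, and 478 and 410.3 CPM in gated and 760 and 812 CPM in other cells of control 2 and 3, so that gated control cells were the lowest. Plat, tissue plasminogen activator, had an interaction of 0.89 ± 0.21 SE (edgeR adjusted p = 0.0299), with log2 differences of 0.87 in iECKO libraries and -0.09 in control 2 and 3. Lars2, mitochondrial leucyl-tRNA synthetase, had an interaction of 0.79 ± 0.16 SE (edgeR adjusted p = 0.00305), with log2 differences of -0.22 in iECKO libraries and -1.09 in control 2 and 3.

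The other 7 were lower relative to other cells in iECKO libraries. Of these, 6 were raised in gated cells of both groups and more so in controls. Ctla2a, a cysteine protease inhibitor gene, had an interaction of -0.85 ± 0.16 SE (edgeR adjusted p = 0.000918), with log2 differences of 1.33 in iECKO libraries and 2.11 in control 2 and 3. Ctla2a had 16450, 7797 and 5010 CPM in gated and 6838, 2937 and 2013 CPM in other cells of iECKO 1, 2 and 3, and 5464 and 3843 CPM in gated and 947 and 1082 CPM in other cells of control 2 and 3, so that the other cells of iECKO libraries were above those of controls. Ccnd1 is given in the report and had an interaction of -1.05. Csrp2, a LIM domain protein gene, had an interaction of -1.07 ± 0.19 SE (edgeR adjusted p = 0.0005), with log2 differences of 0.56 in iECKO libraries and 1.56 in control 2 and 3. Cpe, carboxypeptidase E, had an interaction of -1.13 ± 0.21 SE (edgeR adjusted p = 0.00143), with log2 differences of 1.25 in iECKO libraries and 2.31 in control 2 and 3. Sh3bp5, an SH3 domain binding protein gene, had an interaction of -1.34 ± 0.25 SE (edgeR adjusted p = 0.0005), with log2 differences of 0.95 in iECKO libraries and 2.23 in control 2 and 3. Plaur, the urokinase receptor gene, had an interaction of -1.57 ± 0.33 SE (edgeR adjusted p = 0.0101), with log2 differences of 1.51 in iECKO libraries and 3.02 in control 2 and 3. Pdgfa, a platelet-derived growth factor gene, had an interaction of -1.83 ± 0.37 SE (edgeR adjusted p = 0.00305), with log2 differences of -0.91 in iECKO libraries and 0.86 in control 2 and 3. Pdgfa had 36.2, 21.2 and 29.4 CPM in gated and 69.5, 44.0 and 49.0 CPM in other cells of iECKO 1, 2 and 3, and 85.6 and 78.4 CPM in gated and 42.6 and 43.4 CPM in other cells of control 2 and 3, and was the only one of the 14 that was lower in gated cells of iECKO libraries and higher in those of controls. The remaining 7 genes called fell outside the naming rule, and in Nusap1, Cks2 and Cdk1 control 3 alone had high gated sums (78.4, 78.4 and 72.4 CPM, against 0, 14.3 and 0 CPM in control 2).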

How the results depend on the processing

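Counting error, 28 gated control cells and 68.9% of gated cells from 1 library limit these results. The share of gated cells and the share without a Cldn5 UMI kept their direction under all settings run; the share differed by 1.01 points (thinned to 1000 UMIs) to 11.8 points (2 markers), and without 1 library by 3.99 to 7.88, while the Cldn5 difference was between -12.1 (other cells without markers of arteries or veins) and -1.10, and -7.67 to -5.48 without 1 library. With pairs by number, the share gave p = 0.25 in an exact sign-flip permutation test. Of the values of single genes, 438 stayed on their side of the threshold, 78 lost it and 3 turned: with other cells free of artery and vein markers Lrg1 was 1.60 and Eln 1.06, where the limit falls on the other cells alone, and with other cells free of Plvap and Ackr1, as gated cells are, Esm1 in controls was 1.07. Genes higher and lower in gated iECKO cells were 907 and 600 by DESeq2, 166 and 115 without the library block, 523 and 454 at 1000 UMIs a cell, and 862 to 1420 and 687 to 1174 without 1 library. In controls DESeq2 gave 161 and 49. The interaction gave 15 and 45 unfiltered, 4 and 28 by DESeq2, and 0 to 23 and 0 to 57 without 1 library. Within gated cells, iECKO against control gave 34 and 47 unfiltered, 0 and 3 by DESeq2, 8 and 9 with the replicate block, and 0 to 4 and 0 to 6 without 1 library (2 and 1 without iECKO 3, 4 and 6 without control 2, 0 and 1 without control 3). Outside the gate it gave 13 and 5 unfiltered, 71 and 19 by DESeq2, 89 and 42 with the replicate block, and 0 to 1 and 0 to 1 without 1 library. With gated cells included it gave 2 and 2, and 100 and 42 with the block, and in cells without markers 0 and 0, and 97 and 46 with the block. The causes were not tested. Leaving out 1 of the 2 control libraries from the control contrast left no residual degrees of freedom, and the comparison within gated cells with markers read after thinning had only control 2 with 10 cells, so neither was run. Depth matching, the conditions on Plvap and Ackr1 and the sets of cells with pairing outside the gate were chosen after seeing the data.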

Other observations

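Prnd and Pgf are low-level genes with their highest levels in iECKO cells with 4 to 6 markers; they were chosen after their values were seen. Prnd, the gene of the prion-like protein doppel, had 56.5, 192.5 and 63.2 CPM in gated cells of iECKO 1, 2 and 3, against 8.22, 7.60 and 8.91 CPM in other cells (edgeR adjusted p = 0.065). In control 2 and 3 Prnd had 121 and 114 CPM in gated cells, against 1.65 and 1.57 CPM in other cells (edgeR adjusted p = 6.23e-09). Gated cells of both groups thus held Prnd at levels that overlapped, while other cells of iECKO libraries held more of it than those of controls. At 0 markers Prnd had 4.47, 4.29 and 7.13 CPM in iECKO 1, 2 and 3, against 1.20, 1.29 and 0.973 CPM in control 1, 2 and 3.

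Pgf, the gene of placental growth factor, had 39.0 and 58.4 CPM at 4 to 6 markers in iECKO 2 and 3, against 0 CPM at 3 markers in both libraries, while iECKO 1 had 88.8 CPM at 4 to 6 markers and 22.9 CPM at 3 markers. These are few molecules: in iECKO 3, 30 UMIs stood at 4 to 6 markers and 19 at 0 markers. The difference between gated and other cells of Pgf was not called in iECKO libraries (log2 difference 3.48 ± 0.76 SE, edgeR adjusted p = 0.0849) and was called in control 2 and 3 (6.65 ± 1.44 SE, edgeR adjusted p = 0.000255), where other cells had 0.523 and 0.345 CPM. The difference of Prnd and of Pgf between the groups was not called (interaction of Prnd -2.89 ± 1.19 SE, edgeR adjusted p = 0.773).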
